A study of Mus musculus with 8 samples.

Results

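The regions described here are the round spermatid-only islands of Brdt: stretches of the mouse genome called as bound in round spermatids of both wild-type and Brdt BD1del mice, and called in spermatocytes of neither. They were chosen by the deposited island calls themselves. An island of the wild-type round spermatid list on chromosomes 2 to 13 and 15 to 19 was taken when 1 or more of its bases lay in a BD1del round spermatid island and no base lay in an island of either spermatocyte list. Of 55299 wild-type round spermatid islands on these 17 chromosomes, 6425 met this rule, or 11.6% (exact Clopper-Pearson 95% interval 11.4 to 11.9%). The 4 lists together held 329767 islands there. Intervals throughout cover counting error only.

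Brdt is a testis-specific protein of the BET family, whose members carry a pair of bromodomains that bind acetylated lysines on histones. Spermatocytes are the germ cells in meiosis, and round spermatids are the haploid cells that follow. In later spermatids the histones become widely acetylated and are then replaced by transition proteins and protamines, a step in which Brdt is known to take part through its first bromodomain, BD1. The 4 lists allow sites to be sorted by stage and by presence of that domain.

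The data came from anti-Brdt ChIP-seq in 4 groups of adult mice: wild-type spermatocytes, wild-type round spermatids, and the same cell types from mice with a deletion of the first Brdt bromodomain (BD1del). Each group had 1 ChIP library and 1 input library, so no comparison between groups has replicate error or a test. Wild-type mice were C57BL/6, and the fractions of 10 mice were pooled, while the strain and the number of BD1del mice are not stated in those labels. Both cell types came from a BSA gradient, and no marker of cell type can be read from island lists.

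Each list gave, for every island, the ChIP reads, the control reads, and a fold, which is the ratio of ChIP reads to control reads scaled by library size. On the 17 chromosomes wild type had 22484 spermatocyte and 55299 round spermatid islands, and BD1del had 88738 and 163246. ChIP reads in islands ranged from 2873055 in wild-type round spermatids to 5375414 in BD1del round spermatids. The control library was 1.79 to 5.64 times as deep as the ChIP library, and the names of the lists give other read sets for wild type than for BD1del. Genotype, read set and control depth therefore cannot be told apart, and fold levels of different lists are not on 1 scale.

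The round spermatid-only class was about as large as islands placed nearby would give. When every wild-type round spermatid island was moved by 10 to 500 kb in either direction, in whole windows of 200 bases, the same rule returned 6644 islands on average (lowest 6455, highest 6807 of 100 draws). The observed 6425 was 0.967 times that mean and below the lowest draw, but this ratio turned above 1 under 11 of 19 other settings, from 1.02 to 1.85, so it has no firm direction. The number mixes 2 steps of the rule, which went in opposite directions. Real islands met a spermatocyte island far more often than moved ones did: 32.9% of the list did so, against 15.1% after moves. Fewer real islands were therefore left to enter the class, 37107 or 67.1% of the list, against 84.9% after moves.

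Among the 37107 islands free of spermatocyte islands, the share met by a BD1del round spermatid island was 17.3% (16.9 to 17.7%), against a mean of 14.2% after moves (13.7 to 14.5%). The share met was 1.22 times the moved one, so the overlap of the genotypes at these sites lay 3.16 percentage points above nearby placement. Moved islands were held only within the span of islands on their chromosome, so they could land where no island can be called. The effect of this on the moved values, here and below, was not tested. The corresponding share was 23.1% over the whole wild-type round spermatid list and 34.9% over its islands that met a spermatocyte island. These shares describe the rule, since the same lists chose the islands.

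The match between the genotypes within the stage exceeded moves by more than a match across both stage and genotype did. Islands that met BD1del spermatocytes alone numbered 3911, which was 11.3% (11 to 11.6%) of the islands free of the other 2 lists, against 10.2% after moves. This was a ratio of 1.11 and an excess of 1.09 percentage points, beside 1.22 and 3.16 for BD1del round spermatids. The 2 BD1del lists differ in median island length, 1200 bases in spermatocytes and 400 in round spermatids, which was not matched. Islands that met wild-type spermatocytes alone numbered 6643, which was 17.8% (17.4 to 18.2%) of those free of the other 2 lists, against 3.79% after moves, a ratio of 4.70. Islands met by all 3 other lists numbered 2369, which was 8.10 times the moved mean of 292.5. The difference between these ratios has no test, and the 2 wild-type lists share a read set as well as a genotype.

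**Figure D1:**
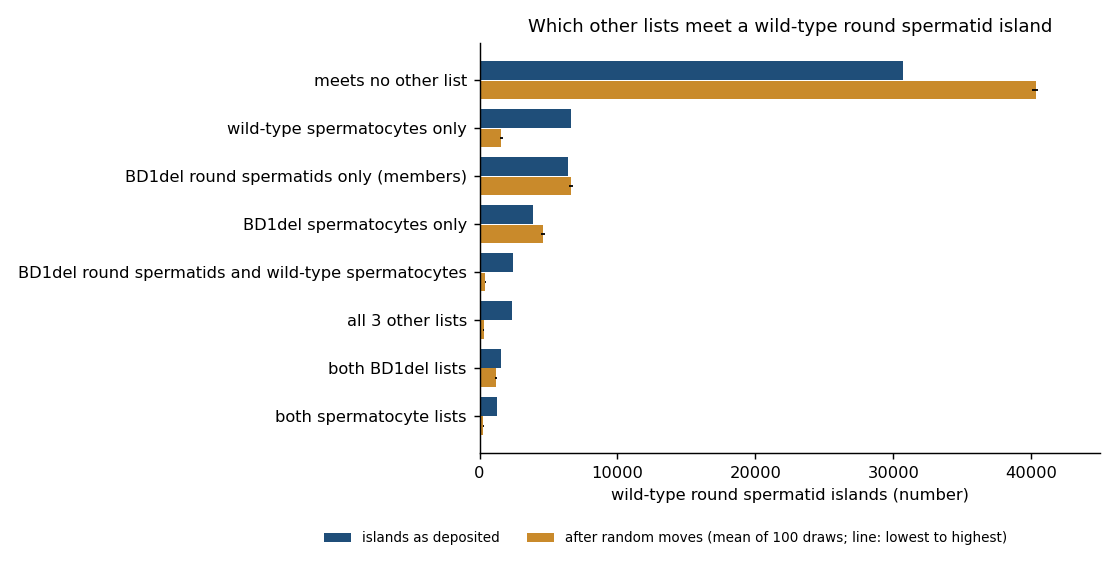
Number of wild-type round spermatid islands (horizontal axis) by which other lists meet them, as deposited (blue) and after random moves of 10 to 500 kb (orange, mean of 100 draws, line from lowest to highest draw). The round spermatid-only class, 6425 islands against 6644 after moves, is close to its moved value, whereas each class that holds wild-type spermatocyte islands is 4.19 to 8.10 times its own.

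The mirror class, islands of spermatocytes of both genotypes that met no round spermatid island, was smaller. It held 1232 of the 22484 wild-type spermatocyte islands, or 5.48%, against 2002 after moves. Among the 7609 wild-type spermatocyte islands free of round spermatid islands, 16.2% met a BD1del spermatocyte island, against 12.4% after moves (11.8 to 13.1%). The number in this class was not recomputed under other settings.

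The round spermatid-only islands had the same median length as those that met a spermatocyte list, but a lower upper quartile. Their median fold lay between that class and the islands that met no list. Median length was 1600 bases (quartiles 1000 and 2200) in the round spermatid-only class. It was 1200 for the 30682 wild-type round spermatid islands that met no other list. For those that met a spermatocyte list it was 1600 (quartiles 1000 and 2600). The median wild-type fold of the round spermatid-only class was 2.90 (quartiles 2.23 and 4.03), against 3.40 and 2.31 in the other classes in that order. Longer islands meet another list more easily, so length and fold differ with the rule. A typical member rested on few reads, with a median of 35 ChIP reads (quartiles 28 and 44) and 46 control reads (30 and 69). In all, the class held 9.14% of the list's ChIP reads in 10.8 Mb, at a pooled fold of 2.59, beside 2.61 for the whole list.

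On the BD1del side each round spermatid-only island was paired with the BD1del island that shared most bases with it. These partners had a median length of 800 bases, a median fold of 5.45 and medians of 31 ChIP and 33 control reads. In the whole BD1del round spermatid list the median length was 400 bases and the median fold 7.39. Moved islands that entered the class met partners of a median fold of 6.28 and a mean median length of 602 bases. A single BD1del island was met by 6254 of the 6425, 2 were met by 166, and 3 by 5. The partners were 6415 distinct BD1del islands, so a few were the partner of more than 1 island.

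Where the genotypes overlapped, they often did so over a small part of the island. The median share of a wild-type island covered was 33.3%, against 25.0% for moved islands that entered the class. Exactly 1 window of 200 bases was shared in 2424 islands (37.7%), against 43.9% after moves. Islands covered over their whole length numbered 1022 (15.9%), against 8.99% after moves. The centres of partner islands lay a median of 400 bases apart, against 500 after moves. On each of these 4 measures partner islands lay somewhat closer together than after moves. The moved islands that entered the class were longer, however. On average 415 of them had 200 to 400 bases, against 656 as deposited, and 1387 had 2600 to 4000 bases, against 1040. These measures depend on island length and were not matched for it, so closeness at equal length was not tested.

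A fold of at least 2 was reached by 5383 of the 6425 islands in wild type (83.8%, beside 80.7% of the whole wild-type list) and by 6323 partners in BD1del (98.4%, beside 99.0% of that list). A fold of at least 4 was reached by 1620 in wild type (25.2%, beside 29.8%) and by 4455 partners (69.3%, beside 80.5%). In wild type the class thus lay above the list at a fold of 2 and below it at a fold of 4, and its partners lay below their list at both.

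Fold in 1 genotype said little about fold in the other. Across the 6425 pairs the Spearman correlation of the folds was 0.11, and that of the lengths was -0.02. In the 2369 islands met by all 3 other lists the same values were 0.39 and 0.44. They were 0.19 and 0.21 in islands met only by BD1del round spermatids and wild-type spermatocytes. In islands met only by both BD1del lists they were 0.24 and 0.15. BD1del partners covered a median of 58.5% of the islands of all lists, against 33.3% in the class. The islands of all lists also held more wild-type ChIP reads, at a median of 70 against 35. The part of shared span and of read number in the correlations was not tested. These correlations are across islands, which are not independent replicates. The 2 lists of a pair come from separate libraries with separate control counts, but both depend on local control coverage, whose density per kb correlated at 0.20 in the class and at 0.53 in the islands of all lists. The BD1del fold was the higher one in 80.6% of the pairs, as it was in 91.6% of the islands met by all lists. The median fold was 7.39 over the whole BD1del list and 2.91 over the wild-type list, so this share does not compare the genotypes at a site.

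**Figure D2:**
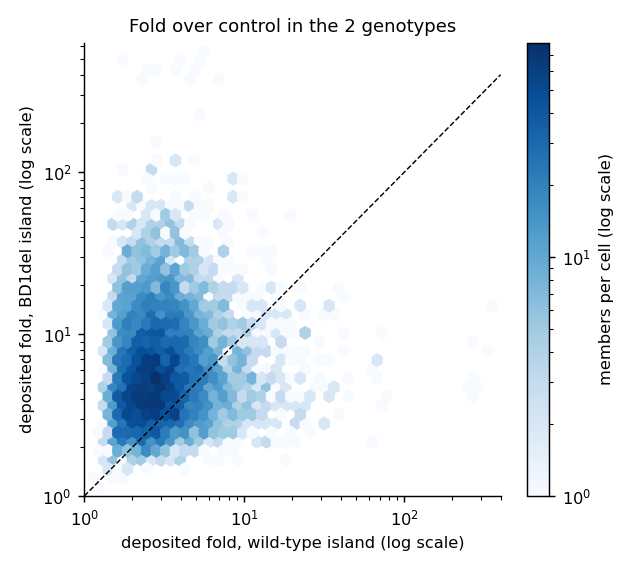
Deposited fold of each of the 6425 round spermatid-only islands in wild type (horizontal axis, log scale) and of its BD1del partner (vertical axis, log scale); darker cells hold more islands (log scale) and the dashed line marks equal folds. The cloud is round, with a Spearman correlation of 0.11, and 80.6% of it lies above the line.

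At stricter fold thresholds in both round spermatid lists, with the spermatocyte lists unchanged, the class exceeded moved placement in number. At stricter FDR thresholds its number stayed within the range of the draws. With a fold of at least 2 in both lists 5315 islands remained, against 4912 after moves (4774 to 5062). With a fold of at least 4 there were 1198, against 948 (853 to 1026), and with at least 8 there were 128, against 89.6 (63 to 119). With an FDR of at most 1e-10 in both there were 1522, against 1436 (1336 to 1562), and with at most 1e-20 there were 84, against 78.2 (59 to 97). With at most 1e-30 there were 13, against 7.38 (1 to 19). All of these FDR counts lay within the range of the draws. As a share of the spermatocyte-free islands that passed the threshold in wild type, the class lay above its moved mean under both rules. The share was 16.3% against 12.8% at a fold of 2 and 8.71% against 6.44% at a fold of 4. It was 11.1% against 8.93% at an FDR of 1e-10 and 3.80% against 2.69% at 1e-20. No range of draws was taken for these shares.

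The share met by BD1del round spermatid islands rose with island length both as deposited and after moves. For islands of 200 to 400 bases it was 10.5% (9.75 to 11.3%), against 5.53% after moves. For 1200 to 1600 bases it was 17.7% against 13.9%, and for 4200 bases or more it was 38.7% (33.7 to 43.9%) against 34.3%. The ratio to moves fell from 1.90 in the shortest islands to 1.13 in the longest. Over 5 equal groups by wild-type fold the share fell from 22.8% in the lowest to 9.87% in the highest, and after moves from 19.7% to 7.68%.

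The excess over moves was largest at islands with dense control reads. With fewer than 20 control reads per kb the share was 12.2% (11.3 to 13.2%), against 11% after moves. From 20 to 40 per kb, where 4263 of the class lay, it was 17.6% against 15.3%. From 40 to 60 it was 18.2% against 14.7%, and from 60 to 80 it was 19.5% (17.4 to 21.8%) against 12%, a ratio of 1.63. With 80 or more it was 28.4% (25.7 to 31.1%), against 10.5%, a ratio of 2.71. The 317 islands of that last group were short, with a median of 400 bases, and BD1del partners covered a median of 100% of them, beside 33.3% in the rest of the class. Their partners also had more control reads, at a median of 56.7 per kb against 42.0. Moved islands were grouped by the control reads of their deposited position, and control reads where they landed were not matched. The moved shares therefore do not hold control density fixed. The part of control density in the overlap was not tested. Without islands of 80 or more control reads per kb the overall ratio was 1.18.

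**Figure D3:**
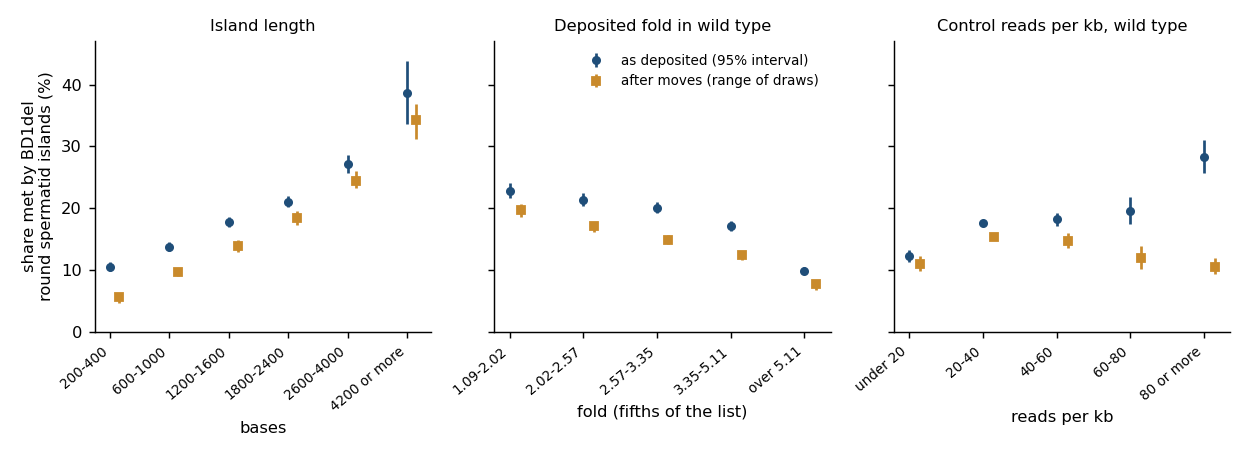
Share of spermatocyte-free wild-type round spermatid islands that meet a BD1del round spermatid island (vertical axis, %), by island length in bases, in 5 groups of wild-type fold and by wild-type control reads per kb; blue circles with exact 95% intervals are as deposited, orange squares give the mean and range of 100 draws of moves. Deposited shares lie above moved ones in every group, and the gap widens with control reads per kb. It is 19.5% against 12% at 60 to 80 and 28.4% against 10.5% at 80 or more. Moved islands are grouped by the fold and control reads of their deposited position.

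The class lay no farther from spermatocyte islands than wild-type round spermatid islands that met no list. The nearest wild-type spermatocyte island was a median of 33.6 kb away (quartiles 13.4 and 74.6 kb), against 34.0 kb for islands that met no list. The nearest BD1del spermatocyte island was a median of 7.4 kb away, against 7.6 kb. A spermatocyte island of either genotype lay within 10 kb of 66.8% of the class, against 66.9%. The share of spermatocyte-free islands met by BD1del round spermatids was 17.3% where a spermatocyte island lay under 1 kb away, 17.5% from 1 to 5 kb, 17% from 5 to 10 kb, 17.8% from 10 to 20 kb and 16.8% from 20 to 50 kb, each above its moved value of 13.6 to 14.6%. At 50 kb or more it was 11.6% (7.67 to 16.7%), against 13.2% after moves, from 25 of 215 islands, and its interval held the moved value. The moved values by distance count all moved positions of these islands, also those that met a spermatocyte island. The moved shares by length, fold and control reads leave such positions out.

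**Figure D4:**
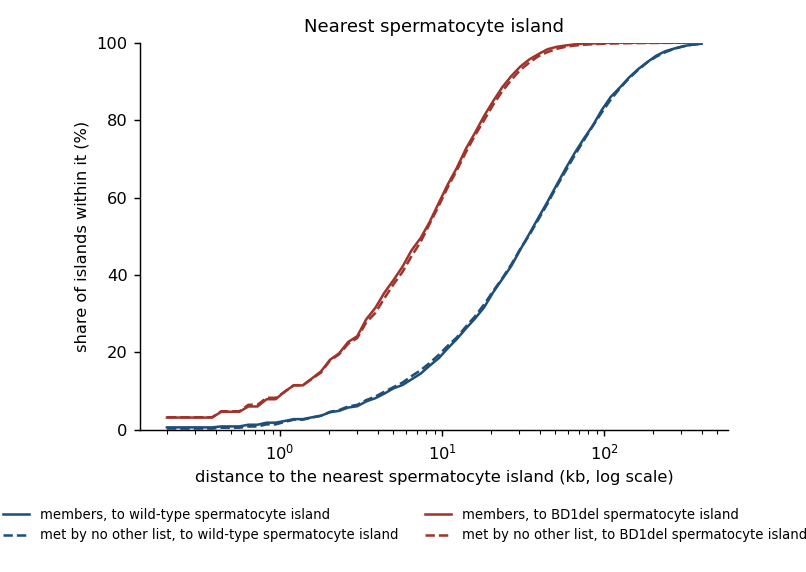
Share of islands (vertical axis, %) that have a spermatocyte island within a given distance (horizontal axis, kb, log scale), for round spermatid-only islands (solid) and for wild-type round spermatid islands met by no other list (dashed), to wild-type (blue) and BD1del (red) spermatocyte islands. Solid and dashed curves nearly coincide, with medians of 33.6 and 34.0 kb in blue and of 7.4 and 7.6 kb in red.

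At the edge of the rule, 135 of the class abutted a spermatocyte island without sharing a base, and 611 had one less than 1000 bases away, with a median fold of 2.84. Just outside it, 530 wild-type round spermatid islands met a BD1del round spermatid island but shared 1 window with spermatocyte islands. These had a median fold of 3 and a median length of 800 bases. The 2424 islands just inside on the other criterion, with 1 window shared with BD1del round spermatids, had a median fold of 3.20 and a median length of 1400.

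Reads in spermatocytes at the islands themselves were not used here, so weak signal below the limit of calling cannot be told apart from none.

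The class was spread over all 17 chromosomes. It ranged from 2.52 islands per Mb on chromosome 10 to 3.93 on chromosome 19, with 3.78 on chromosome 2 and 3.40 on chromosome 11. Across the 17 chromosomes this density had a Spearman correlation of 0.73 with wild-type and 0.72 with BD1del round spermatid islands per Mb, as a description. Chromosome 11 departed from it, with 23.4 wild-type islands per Mb, among the lowest, and 90.4 BD1del islands per Mb. As a share of a chromosome's spermatocyte-free islands the class ranged from 14.6% on chromosome 12, against 13.2% after moves, to 19.8% on chromosome 11, against 15.9%. This share was above the moved mean on each of the 17 chromosomes.

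**Figure D5:**
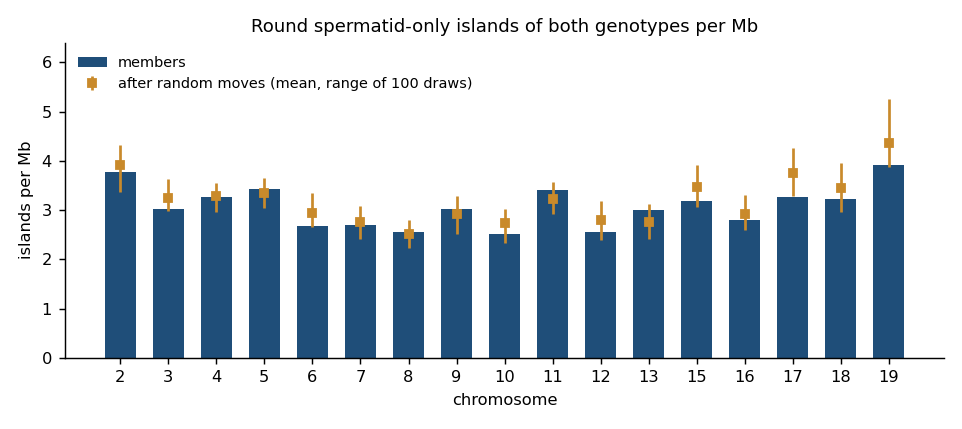
Round spermatid-only islands per Mb (vertical axis) by chromosome, as deposited (bars) and after random moves (orange squares, mean and range of 100 draws). Bars run from 2.52 on chromosome 10 to 3.93 on chromosome 19, and the moved values rise and fall with them.

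The islands were scattered. Neighbours lay a median of 209 kb apart, against 203 kb for moved islands that entered the class, and 3.67% of neighbours lay within 10 kb, against 6.21% after moves. Each island was moved on its own, so moved islands could overlap or lie closer together than islands of 1 list can. The 2 shares of close neighbours are therefore not like for like. Of the 6425, 5965 had no other within 10 kb, 215 pairs and 10 runs of 3 made up the rest, and no run was longer. Of 2109 bins of 1 Mb, the median held 3 and 144 held none. The densest bin, chosen after its values were seen, was chromosome 2 from 168 to 169 Mb with 13; it held 42 wild-type and 84 BD1del round spermatid islands in all.

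The first 5 runs of 3 in chromosome order lay on chromosomes 2, 4 and 6 of mm9. The run at chr2:126735001-126754600 spanned 19.6 kb, with wild-type folds of 2.27, 3.54 and 5.15 and BD1del folds of 3.01, 5.45 and 7. In that run the folds of both genotypes rose in the same order. The run at chr2:165593001-165605800 had wild-type folds of 2.60, 2.87 and 3.72 and BD1del folds of 3.78, 8.80 and 11.8. Another on the same chromosome, chr2:172139401-172153400, had lower folds, from 1.71 to 2.12 in wild type and from 2.46 to 4.44 in BD1del. The run at chr4:44765201-44774600 spanned 9.4 kb with wild-type folds of 1.87 to 6.63 and BD1del folds of 5.45 to 13.6, and its strongest wild-type island was not the strongest in BD1del. In the run at chr6:57440401-57450800 wild-type folds were 2.75 to 5.71 and BD1del folds 3.54 to 9.42.

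The single islands of highest fold in both genotypes were short, at 400 to 1200 bases. Fold fell with length in the class, from a wild-type median of 5.93 at 200 to 400 bases to 1.97 at 4200 or more. A ranking by fold therefore favours short islands. By the smaller of the 2 folds, with at least 10 control reads in each list, the leading one was chr6:63433001-63434000, 1000 bases long. It held 47 ChIP and 11 control reads in wild type, a fold of 16.2 (95% interval from both counts 8.27 to 34.6). Its BD1del partner was a single window with 37 ChIP and 11 control reads, a fold of 18.3 (9.15 to 39.8). The nearest spermatocyte islands lay 128.4 kb away in wild type and 11.4 kb away in BD1del. The first distance is above the upper quartile of the class, and the second lies between its quartiles of 3 and 15 kb.

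The next was chr18:73879601-73880400, 800 bases long, with 46 ChIP and 13 control reads in wild type (fold 13.4, 7.12 to 27.0). Its partner shared 600 bases and held 46 ChIP and 19 control reads (fold 13.2, 7.58 to 23.8). The other three were chr2:168282601-168283000, with folds of 9.99 and 11.7, chr8:68205001-68206200, with 10.3 and 9.90, and chr11:69628601-69629200, with 9.85 and 13.4.

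Of the 5 islands of highest wild-type fold, only the one on chromosome 6 above was also among the 5 of highest smaller fold. The highest wild-type fold with at least 10 control reads was 16.9 (8.66 to 36.0) at chr4:28347801-28348800, whose partner had a fold of 6.93 (3.82 to 12.7). At chr18:54653201-54654200 the wild-type fold was 13.6 (8.67 to 22.2), from 90 ChIP and 25 control reads, and the BD1del fold was 3.68 (2.50 to 5.39). At chr8:53661001-53662200 the folds were 14.1 and 32.7, the latter from only 4 control reads. The island at chr3:100675801-100676000, a single window of 51 ChIP reads, had folds of 16.1 and 9.53.

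Among partners backed by 10 or more control reads, the highest fold was at chr18:53373601-53374400, where BD1del held 78 ChIP and 14 control reads (fold 30.3, 17 to 58.1) and wild type 29 and 47 (fold 2.34, 1.42 to 3.79). At chr17:31371601-31374200 the folds were 28.7 (14.9 to 60.7) in BD1del and 1.87 (1.23 to 2.79) in wild type. These islands were picked for their BD1del fold, and folds of the 2 lists are not on 1 scale. The other three leading partners had BD1del folds of 27.2 at chr17:80922201-80922600, 27.2 at chr12:112991601-112993000 and 26.7 at chr11:109078401-109080200, with wild-type folds of 7.58, 4.89 and 2.46. The last of these abutted a wild-type spermatocyte island.

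The longest islands of the class and those with most reads had wild-type folds of 1.09 to 2.07 and dense control reads. Only 3 spanned 10 kb or more. The longest, chr7:71610601-71641200, covered 30.6 kb with 2166 ChIP and 5490 control reads in wild type (fold 1.49, 1.42 to 1.57), and the 3 BD1del islands in it covered 6000 bases. The second, chr8:19712201-19739400, covered 27.2 kb at a fold of 1.09 (1.04 to 1.14), with a BD1del partner of 56.6 kb at 1.23 and a BD1del spermatocyte island 800 bases away. The third, chr4:146768801-146781000, covered 12.2 kb at folds of 1.42 and 1.26. Control reads there were 179, 264 and 136 per kb, against a median of 30.0 in the class.

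By ChIP reads the first was chr2:3881001-3885800, with 2847 ChIP and 9268 control reads, a fold of 1.16 (1.12 to 1.21) and 1931 control reads per kb. The second, chr6:121600001-121605200, had 2374 ChIP and 4338 control reads and a fold of 2.07 (1.97 to 2.18), and its partner a fold of 2.21 (1.62 to 2.97). Control reads there were 834 per kb. The longest island, described above, was the third by ChIP reads.

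The 5 islands with an FDR of at most 1e-40 in both genotypes were named after their values were seen. They had many reads, with wild-type folds of 2.35 to 4.03 and BD1del folds of 4.71 to 12.2. Moved placement gave 1.32 such islands on average (0 to 5). At chr13:108648201-108650400 both genotypes had an island of 2200 bases with the same limits, with 362 ChIP and 340 control reads in wild type (fold 4.03, 3.47 to 4.69) and 148 and 66 in BD1del (fold 12.2, 9.08 to 16.6). The nearest spermatocyte islands lay 138.4 kb away in wild type and 3.8 kb away in BD1del. At chr2:166656201-166657400 both islands spanned the same 1200 bases, with folds of 2.35 (2.08 to 2.67) and 9.88 (7.55 to 13). At chr8:9296601-9298000 the folds were 2.91 (2.45 to 3.45) and 11.98 (9.36 to 15.4), at chr11:102874001-102876000 they were 3.77 and 9.14, and at chr4:138580801-138584200 they were 2.49 and 4.71. Wild-type control reads at the 5 ran from 108 to 555 per kb, above the class median of 30.0, and BD1del control reads from 30.0 to 71.7.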

How the data were processed

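Anti-Brdt ChIP-seq was available as 4 island lists, 1 per ChIP library; the 4 inputs entered only as control counts. Per the labels' protocols, wild-type chromatin was digested with MNase to about 200 bp and libraries had inserts of about 150 bp. Per the submitters' processing notes, the authors called islands with SICER on mm9; the window of 200 and gap of 600 bases come from the labels of the lists. The aligner, the treatment of duplicates and the control library of each list are not given in the sources used here. The ChIP and control counts were whole reads per island as deposited, with no scaling. The p-value and FDR deposited with them (FDR 0.00999 at most) and the deposited ratio (fold) compare ChIP with scaled control reads; fold and FDR are the authors', and folds of different lists are set side by side as values, not on 1 scale.

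Coordinates are 1-based on mm9. No genome or annotation of mm9 was used here, so islands are given by position, without genes or sequences. Overlap needed 1 shared base. Moves (100 seeded draws) were made in whole windows, since all islands lie on the window grid; this step was set after the data were examined, and moves in single bases are an alternative. They describe placement, and no p was taken from them. Intervals of folds come from an exact binomial split of both counts. Overlap counting was tested on simulated data. Regions were named by rule: highest smaller fold, highest fold per genotype (at least 10 control reads), longest, most reads, and runs with gaps of at most 10 kb. Members and rules were chosen with earlier results of these data known. Python 3.11.15, numpy 2.4.6, pandas 2.3.3, scipy 1.17.1 and matplotlib 3.10.9 were used.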

Additional observations from a re-analysis of the deposited data

How the results depend on the processing

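The number of round spermatid-only islands stayed within 1.5 times 6425 under 15 of 19 alternatives, from 4727 to 8844. It fell to 1905 with an FDR of at most 1e-10 in all lists and to 1522 with that FDR in the round spermatid lists alone. It fell to 128 when each list kept its 10000 islands of smallest p, and to 3656 with no spermatocyte island within 5000 bases. The settings that gave 1522 and 3656 can only admit fewer islands. Those that gave 1905 and 128 also thin the spermatocyte lists, which removes exclusions.

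The ratio of that number to moved placement was 0.967 and turned above 1 under 11 alternatives, so no direction can be given for it. It was 1.20 and 1.06 with an FDR of at most 1e-10 in all lists and in the round spermatid lists, 1.19 and 1.08 with a fold of at least 2 in the same order, 1.03 and 1.03 with at least 10 control reads, 1.85 with 10000 islands per list, 1.15 counted in the BD1del list, and 1.08 without single-window islands. It was 1.02 without the BD1del spermatocyte list in the rule and 1.25 without the wild-type spermatocyte list. Moves in single bases, which take islands off the window grid, gave 0.889. The cause of these shifts was not tested.

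The ratio of the share met among spermatocyte-free islands to its moved value, 1.22, was above 1 under all 19 alternatives. It was 1.34 with an FDR of at most 1e-10 in all lists, 1.31 and 1.28 with a fold of at least 2, 2.16 with 10000 islands per list (128 islands, 1.53% against 0.709%), 1.34 and 1.34 with at least 10 control reads, 1.19 counted in the BD1del list, 1.38 without single-window islands, 1.26 and 1.33 without the BD1del or the wild-type spermatocyte list, 1.18 with fewer than 80 control reads per kb, and 1.11 with moves in single bases. The last 4 settings, and this ratio itself, were chosen after seeing the data. The median wild-type fold ranged from 2.72 to 4.89 and the BD1del fold from 4.61 to 10.7. No paired analysis was possible because each group had 1 library.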
